A study of Mus musculus with 2 samples.

Results

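The Egr and Nr4a genes are immediate early genes that report signalling through the T cell receptor, and 7 of the 35976 genes in the deposited tables are described here across single CD4 T cells. They are Egr1, Egr2 and Egr3, the receptor genes Nr4a1, Nr4a2 and Nr4a3, and Nab2, a corepressor of Egr proteins. They were chosen by name, after it was known that Egr genes were lower and Nr4a1 was higher in one group than in the other. That opposite direction is therefore a description with no test, and the counts that rest on the same contrast support nothing. Of the 7 genes, 6 passed the minimum of 5 CPM (reads per 1000000 reads in genes) in either group, and Nr4a2 did not.

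The cells came from the spleens of mice that had received OTII CD4 T cells, which carry a transgenic receptor for ovalbumin. One group of hosts carried IL13Ra1f/f, CD11cCre/+, so that the IL-13 receptor gene was removed in host cells that express CD11c, mainly dendritic cells, and not in the transferred T cells. The other group were C57BL/6 control hosts. Both groups were sampled on day 7 after CAS (not spelled out in the labels) and a second priming. No age is given. Each group was 1 pooled sample, of 3 deleted hosts and of 2 control hosts, and the study asked how the IL-13 signal bears on follicular helper T cells. Viable cells positive for V beta 5.1/5.2 and CD4 were sorted singly into plates for SmartSeq2, a full-length RNA-seq method. The gate named no congenic marker, so CD4 cells of the host that use the same V beta chains may be among them.

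The deleted pool held 542650671 reads in genes and the control pool 573105030, each over 368 cell wells on 4 plates, with medians of 1499762 and 1592794 reads per cell. Plates are technical splits of 1 pool, and no plate held cells of both pools, so plate and pool cannot be told apart. There were no replicate pools and no test between groups. Intervals are exact 95% intervals for the counting of reads or cells only. The 9 CD4 T cell markers summed to 8186 CPM in deleted and 7957 CPM in control hosts, all 9 above 5 CPM. Each of the 6 marker sets of other blood cells summed to between 6.32 and 27.7 CPM in deleted and between 5.10 and 26.5 CPM in control hosts. Cd8a and Cd8b1, the pair of CD8 T cell markers, summed to 9.47 CPM in deleted hosts (plates 0.311 to 16.1) and 26.5 CPM in control hosts (plates 13.7 to 41.7), and any part of this in the Egr levels was not tested.

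T cell receptor engagement raises calcium and activates the ERK kinases. ERK acts on serum response factor and its partners at CArG boxes, which take part in driving Egr genes. Calcium and cAMP signals reach CREB, NFAT and MEF2 proteins, which take part in driving Nr4a genes. The division is not strict, and either route can reach genes of both families. Egr1 is a zinc finger activator, Egr2 and Egr3 limit T cell activation and take part in follicular helper differentiation, and Nab proteins bind Egr proteins and restrain them. Nr4a1 (Nur77), Nr4a2 (Nurr1) and Nr4a3 (Nor1) are orphan nuclear receptors that limit T cell responses, and Nr4a1 is the standard reporter of receptor signal strength in mouse T cells. In bulk or pooled levels, fewer expressing cells and less RNA per cell cannot be told apart, which the counts of single cells below separate in part.

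Upstream sequences of Nr4a1, Nr4a3 and Egr2 are shown first, with the response elements for these signals that they hold. Sequences are from RefSeq, build GRCm38.p6, and 5 of the 7 genes had a promoter entry. Egr1 and Egr3 had none, so of the Egr genes only Egr2 is described, and the families cannot be compared by these elements. Each runs 5′ to 3′ in the direction of the gene and was taken from the 250 bases before 1 RefSeq transcript start. Other transcripts of Nr4a1, Egr2 and Nr4a3 start earlier, so these windows lie wholly or in part inside the genes as annotated. Capitals mark the CREB-binding core CGTCA, on either strand (TGACG on the other), and in Egr2 also the CArG box.
Nr4a1, chr15:101266596-101266845, plus strand: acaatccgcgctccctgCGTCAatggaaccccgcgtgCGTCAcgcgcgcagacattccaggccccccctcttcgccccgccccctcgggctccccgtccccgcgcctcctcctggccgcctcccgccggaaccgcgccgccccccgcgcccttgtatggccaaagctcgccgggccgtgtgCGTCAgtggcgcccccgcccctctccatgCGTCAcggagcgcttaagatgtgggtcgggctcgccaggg
Nr4a3, chr4:48045055-48045107, plus strand: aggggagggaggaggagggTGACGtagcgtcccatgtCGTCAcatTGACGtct
Egr2, chr10:67537619-67537868, plus strand: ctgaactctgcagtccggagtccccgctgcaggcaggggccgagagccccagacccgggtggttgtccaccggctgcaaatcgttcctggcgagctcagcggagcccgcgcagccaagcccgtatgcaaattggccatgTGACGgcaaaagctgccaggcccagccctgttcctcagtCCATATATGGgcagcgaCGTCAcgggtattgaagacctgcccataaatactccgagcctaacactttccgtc

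The CGTCA core occurred 4 times in the 250 bases before the transcript start used for each of Nr4a1, Nr4a2 and Nr4a3, and 4 or more copies were present in 0.137% of the 32851 promoter windows in the table. The Nr4a3 stretch above was shortened because an annotated transcript starts inside it, and it shows 3 of the 4 copies. In Nr4a1 the copies lay 233, 213, 69 and 40 bases before the start, counted at their first base. The Egr2 window shown held the core 2 times (2 or more in 3.90% of windows) and a CArG box that began 72 bases before the start (1.47% of windows). Nr4a1 also held 1 copy of the Egr-binding site GCGGGGGCG, on the reverse strand, as did 2.57% of windows. The Nr4a monomer site AAAGGTCA and the full CREB site TGACGTCA, which contains the core on both strands, were searched on both strands and were found in none of the 5 promoters, and Nab2 held none of the motifs. The short NFAT core GGAAA, present in 55.6% of windows, occurred 1 time in the Egr2 window shown and in Nr4a2. Egr2 had 5 windows in the table. The one shown and the 2 that overlap it most held the same number of matches of each motif, another held the CArG box and 3 NFAT cores but no CGTCA core, and the last held none of the motifs. These matches describe letters in a window and not bound sites.

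The 3 Egr genes were lower in deleted hosts than in control hosts, and for Egr1 no plate overlapped. Egr1 (chr18:34861207-34864956, GRCm38) was at 108, 136, 94.0 and 125 CPM on the 4 deleted plates, against 173, 236, 482 and 290 CPM on the 4 control plates. Every deleted plate lay below every control plate, and the pools stood at 116 and 296 CPM, 2.53-fold lower in deleted hosts, a log2 ratio of -1.34 (all log2 ratios here compare CPM + 1 in deleted over control hosts). Egr2 (chr10:67534469-67542188) was at 76.9, 80.5, 29.4 and 91.5 CPM on the deleted plates and at 36.6, 114, 178 and 202 CPM on the control plates. The plates overlapped only through control plate 1, which was lower than 3 of the deleted plates, and the log2 ratio was -0.93. Egr3 (chr14:70077317-70082613) was at 21.0, 22.9, 2.13 and 6.45 CPM on the deleted plates and at 5.30, 35.8, 47.0 and 34.8 CPM on the control plates. Control plate 1 was again the low one, and the log2 ratio was -1.20. The summed Egr reads came to 198 CPM in deleted and 460 CPM in control hosts (log2 ratio -1.21).

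Nab2 (chr10:127660918-127666703), which Egr proteins themselves can induce and which then restrains them, was lower with the Egr genes. It was at 46.2, 63.7, 63.7 and 43.0 CPM on the deleted plates, against 85.3, 72.2, 87.6 and 75.6 CPM on the control plates. No plate overlapped, but the difference was smaller than for Egr1, with a log2 ratio of -0.56. The gene overlaps Stat6, Nemp1 and Gm16229 on the opposite strand, and the strand setting of the counting is not given in the sources used here, so reads of these neighbours cannot be told apart from its own. Nab1, its relative, was at 100.4 CPM in deleted and 92.8 CPM in control hosts (log2 ratio 0.11).

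Nr4a1 went the other way, mainly through the number of cells. Nr4a1 (chr15:101253902-101274795) was at 1186, 1223, 1163 and 1767 CPM on the deleted plates and at 653, 735, 1365 and 957 CPM on the control plates. Control plate 3 lay above 3 of the deleted plates, so the levels overlapped, and the pools stood at 1344 and 929 CPM, 1.44-fold higher in deleted hosts (log2 ratio 0.53). Nr4a3 (chr4:48045078-48086447) was at 33.5, 22.5, 15.7 and 34.7 CPM on the deleted plates and at 5.15, 35.6, 19.1 and 19.2 CPM on the control plates. These plates overlapped widely. The log2 ratio of 0.42 was 0.11 without control plate 1 and 0.83 without control plate 2. Nr4a2 (chr2:57106830-57124003) was at 1.66 and 2.23 CPM, and 85.0% of its per-cell CPM in control hosts came from 1 cell, so no difference is given for it. Nr4a1 made up 97.9% of the summed Nr4a reads in deleted and 97.7% in control hosts.

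Of the 6 measured members, 2 had plates that did not overlap, Egr1 and Nab2, both lower in deleted hosts. Without control plate 1 there were 4, with Egr2 and Egr3 also lower, and without control plate 3 there were 3, with Nr4a1 higher. Leaving out a plate can only reduce overlap, and no share over all genes was computed with a plate left out. With all plates, across the 9764 genes with 5 CPM or more, 4.41% had plates that did not overlap in either direction, 1.81% higher and 2.60% lower. Egr1 and Egr3 were the 2 members at least 2-fold lower, which 6.71% of genes were, and no member was 2-fold higher, which 5.98% of genes were. The median log2 ratio of all these genes was -0.04, and the members were chosen on this contrast, so nothing is read from their share.

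**Figure D1:**
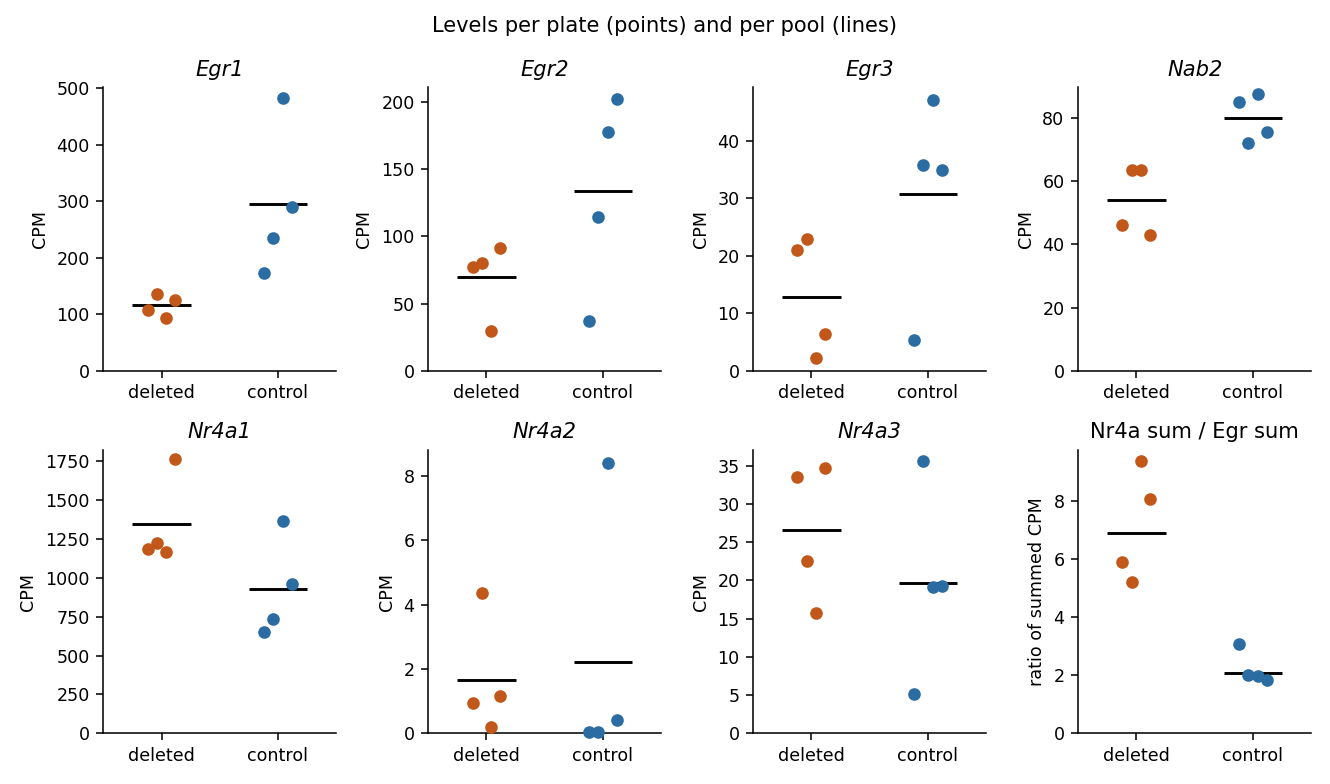
Level of each gene in CPM on the 4 plates of deleted hosts (orange points, left) and of control hosts (blue points, right), with black lines at the pool level; the last panel divides summed Nr4a CPM by summed Egr CPM. The Egr1, Nab2 and ratio panels have no overlap between pools (ratio plates 5.22 to 9.39 in deleted and 1.85 to 3.06 in control hosts), and vertical axes differ between panels.

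Levels of different genes can be compared only per length, here as CPM per kilobase of annotated exons. Nr4a1 was the highest member by this scale, at 383 CPM per kilobase in deleted and 265 in control hosts. Egr1 came next, at 25.9 CPM per kilobase in deleted hosts (plates 21.0 to 30.4) and 66.0 in control hosts (plates 38.6 to 108). Egr2 followed at 20.5 in deleted and 39.3 in control hosts, and Nab2 at 18.4 in deleted and 27.3 in control hosts, and the plate ranges of Egr1, Egr2 and Nab2 overlapped in deleted hosts. In control hosts Egr2 overlapped with both Egr1 and Nab2, while Nab2 (plates 24.5 to 29.8) lay below Egr1. Nr4a3 (4.43 in deleted and 3.27 in control hosts) and Egr3 (2.90 in deleted and 6.97 in control hosts) overlapped in both pools, and Nr4a2 was lowest.

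The balance of the families differed on every plate. Summed Nr4a reads exceeded summed Egr reads 5.92, 5.22, 9.39 and 8.07 times on the deleted plates, against 3.06, 2.00, 1.97 and 1.85 times on the control plates. No plate overlapped, and the pools stood at 6.91 in deleted and 2.07 in control hosts. For Nr4a1 over Egr1 alone the pool ratios were 11.6 and 3.14. Within the control pool both families were highest on plate 3, so that plate was high in Nr4a1 without departing from the control balance.

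Positive cells were those that reached both 10 CPM and 5% of the mean level of the gene over their plate. Cells positive for Nr4a1 numbered 189 of 368 in deleted hosts (51.4%, interval 46.1 to 56.6%) and 121 of 368 in control hosts (32.9%, 28.1 to 37.9%). By plate these were 40, 45, 49 and 55 cells in deleted and 33, 29, 29 and 30 cells in control hosts, with no overlap. Within positive cells the level of Nr4a1 was more alike, with a median of 1418 CPM in deleted and 1128 CPM in control hosts. Nr4a1 had at least 1 read in every cell of both pools, and the 9 wells without a cell held 4 to 16 Nr4a1 reads, up to 10.5 CPM of a median cell, so low values are background. The Nr4a1 cut was 58.1 to 88.3 CPM on the deleted plates and 32.7 to 68.3 CPM on the control plates, so it differed between the pools. Between 5 and 14 cells per pool lay within 2-fold of the Nr4a1 cut on either side.

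Egr1 was positive in fewer cells and at a lower median level in deleted hosts. Cells positive for Egr1 numbered 84 in deleted hosts (22.8%, interval 18.6 to 27.5%) and 106 in control hosts (28.8%, 24.2 to 33.7%), and the plates overlapped at 17 to 24 and 21 to 33 cells. The median in these cells was 213 CPM in deleted hosts (quartiles 42.2 and 945) and 408 CPM in control hosts (quartiles 154 and 1283). The lower quartile in deleted hosts was near the cut, with 13 deleted-host cells within 2-fold below it, against 5 control cells. At 50 CPM or more alone the positive shares were 16.6% in deleted and 25.3% in control hosts. Egr2 was read in few cells at a high level, 23 in deleted and 35 in control hosts, with medians of 871 and 1117 CPM. Egr3 was positive in 19 and 28 cells, with medians of 121 CPM in deleted and 370 CPM in control hosts. The 5 highest cells gave 73.1% of the per-cell Egr3 CPM in deleted and 44.5% in control hosts, so its level rests on few cells. Nr4a3 was positive in 45 deleted-host and 31 control cells (medians 118 and 180 CPM), and Nab2 in 53 and 69 (medians 265 and 386 CPM).

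In the same cells the families went together in both pools, and the pools differed in the cells with 1 family alone. Cells positive for at least 1 gene of each family made up 64 of 368 in deleted hosts (17.4%, interval 13.7 to 21.7%) and 63 of 368 in control hosts (17.1%, 13.4 to 21.4%), a nearly equal share. The cells positive for Nr4a genes alone numbered 136 in deleted hosts (37.0%, 32.0 to 42.1%) and 69 in control hosts (18.8%, 14.9 to 23.1%), with 28, 31, 37 and 40 on the deleted plates and 21, 19, 12 and 17 on the control plates. No plate overlapped in this class. Cells positive for Egr genes alone numbered 27 in deleted hosts (7.34%, 4.89 to 10.5%) and 49 in control hosts (13.3%, 10.02 to 17.2%), with 8, 4, 6 and 9 on the deleted plates and 11, 11, 13 and 14 on the control plates, again with no overlap. Cells positive for neither family numbered 141 and 187. Reads per cell did not separate the classes, with medians between 1400234 and 1535606 in deleted and between 1530303 and 1686728 in control hosts.

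**Figure D2:**
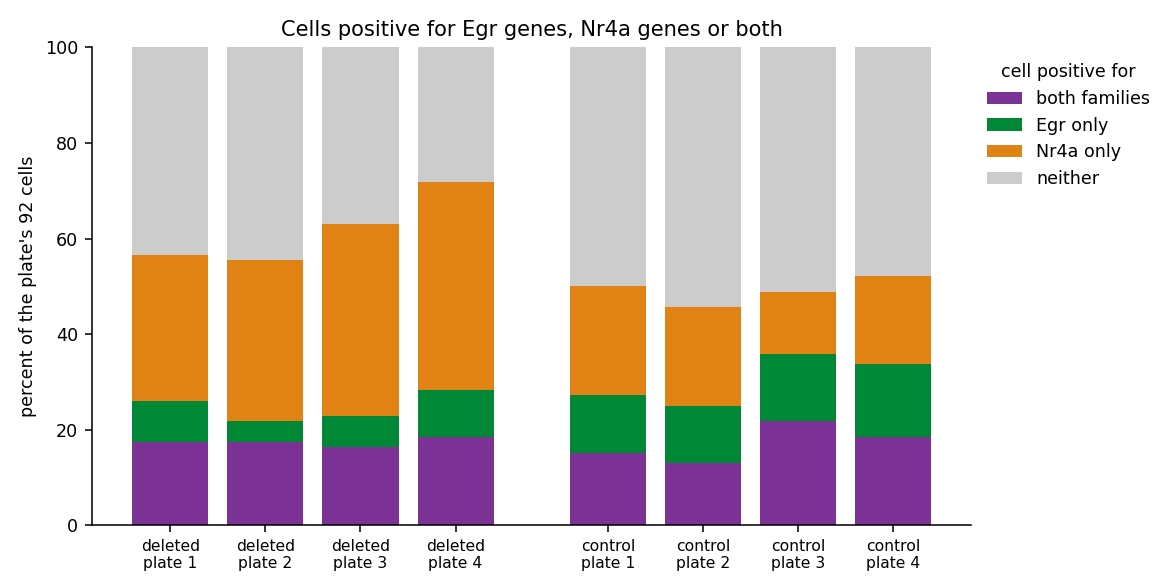
Share of the 92 cells of each plate that were positive for both families, for Egr genes only, for Nr4a genes only or for neither, with the 4 deleted plates at the left and the 4 control plates at the right. Both families are positive in 15 to 17 cells on deleted plates and in 12 to 20 cells on control plates, while Nr4a genes alone are positive in 28 to 40 cells on deleted and 12 to 21 cells on control plates.

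Among Nr4a-positive cells, 64 of 200 were also Egr-positive in deleted hosts (32.0%, interval 25.6 to 38.9%) and 63 of 132 in control hosts (47.7%, 39.0 to 56.6%). By plate the counts were 16 of 44, 16 of 47, 15 of 52 and 17 of 57 in deleted hosts, and 14 of 35, 12 of 31, 20 of 32 and 17 of 34 in control hosts. Every deleted plate had a lower share than every control plate. Among Nr4a-negative cells the Egr-positive shares were 16.1% in deleted and 20.8% in control hosts. The number of cells positive for both was 1.29 times what the plates' separate shares give in deleted hosts and 1.57 times in control hosts. On deleted plate 4 this ratio was 1.06. Egr1 was positive in 25.5% of the Nr4a1-positive cells, against 27.0% of the Nr4a1-negative cells of that plate, so there the genes did not go together.

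**Figure D3:**
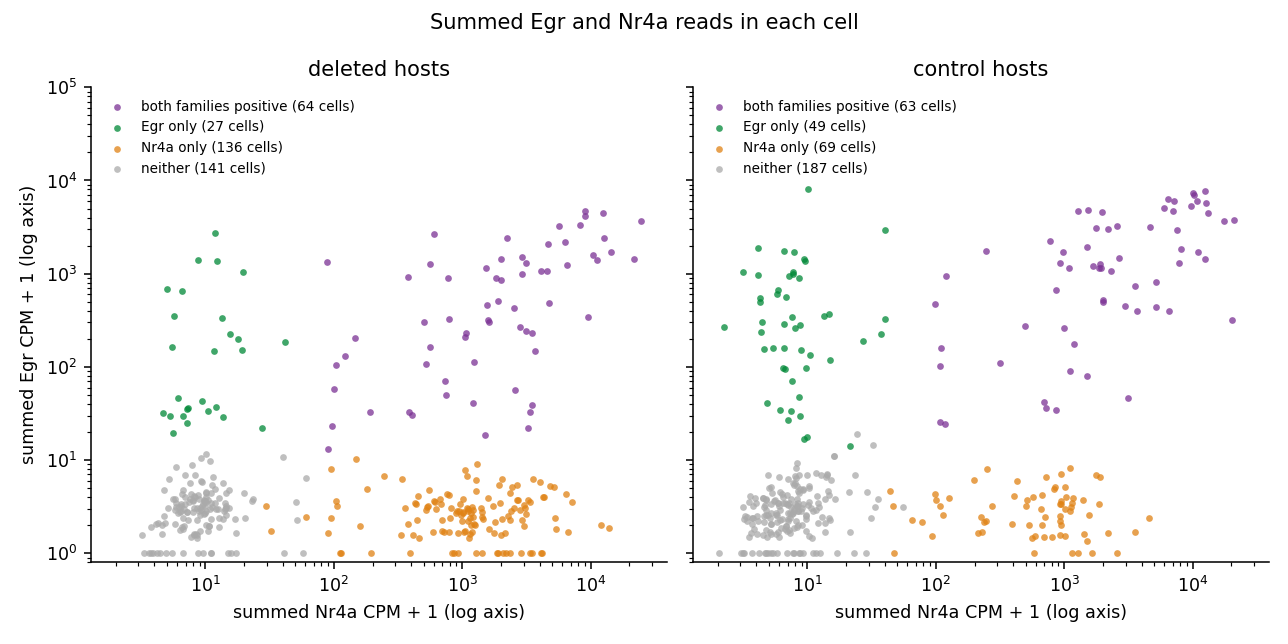
Summed Egr CPM against summed Nr4a CPM in each of 368 cells of deleted hosts (left) and 368 cells of control hosts (right), both on log axes after adding 1, coloured by which family was positive. Cells above 1000 Nr4a CPM include many that were not Egr-positive in deleted hosts and fewer in control hosts, and counts per class stand in the legends.

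Of 4 levels of Nr4a1, the highest was where the Egr1 shares of the pools lay farthest apart. Cells with 2000 CPM or more of Nr4a1 numbered 75 in deleted hosts (20.4%, interval 16.4 to 24.9%) and 33 in control hosts (8.97%, 6.25 to 12.4%). Of these, 29 of 75 were positive for Egr1 in deleted hosts (38.7%, 27.6 to 50.6%), against 30 of 33 in control hosts (90.9%, 75.7 to 98.1%). The counts by plate were 8 of 17, 9 of 16, 5 of 17 and 7 of 25 in deleted hosts, and 5 of 6, 7 of 8, 10 of 10 and 8 of 9 in control hosts. No plate overlapped, from 28.0 to 56.3% in deleted and from 83.3 to 100% in control hosts. The median Egr1 level in these cells was 2.60 CPM in deleted and 1258 CPM in control hosts. These control cells also held more Nr4a1, with a median of 3351 CPM in deleted and 6873 CPM in control hosts. At 4000 CPM or more of Nr4a1 the counts were 17 of 32 cells in deleted hosts (53.1%, 34.7 to 70.9%) and 23 of 24 in control hosts (95.8%, 78.9 to 99.9%). The 2000 CPM bin was chosen with earlier results of these data known, and cells are not replicates.

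Below that level the Egr1 intervals of the pools overlapped, and the order of the shares was not the same throughout. With Nr4a1 from 500 to under 2000 CPM, Egr1 was positive in 17 of 84 cells in deleted hosts (20.2%) and 23 of 66 in control hosts (34.8%). In Nr4a1-negative cells it was positive in 30 of 179 of deleted hosts (16.8%) and 49 of 247 of control hosts (19.8%). Where Nr4a1 was positive but under 500 CPM the order was turned, on few cells. Egr1 was positive there in 8 of 30 cells of deleted hosts (26.7%, interval 12.3 to 45.9%) and 4 of 22 of control hosts (18.2%, 5.19 to 40.3%). Nab2 in cells with 2000 CPM or more of Nr4a1 was positive in 21 of 75 in deleted hosts (28.0%, interval 18.2 to 39.6%) and 18 of 33 in control hosts (54.5%, 36.4 to 71.9%). Nr4a3 in the same cells was at nearly the same share, 33.3% in deleted and 30.3% in control hosts. Fos, an AP-1 subunit gene, was positive in 52.0% of these cells in deleted hosts (interval 40.2 to 63.7%). In control hosts Fos was positive in 39.4% (22.9 to 57.9%), and the intervals overlap. Cd69, an early activation marker, was positive in 53.3% of these cells in deleted and 57.6% in control hosts.

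**Figure D4:**
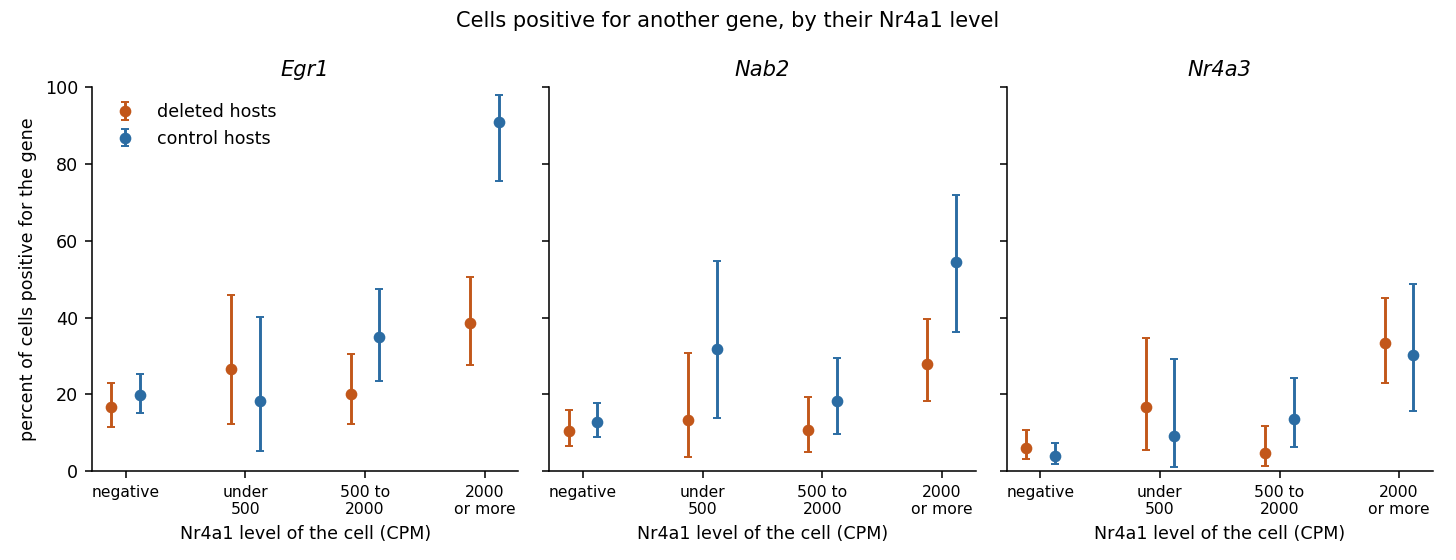
Percent of cells positive for Egr1, Nab2 and Nr4a3 at 4 levels of Nr4a1 in the same cell, in deleted hosts (orange) and control hosts (blue), with exact 95% intervals for the counting of cells. The Egr1 intervals overlap at the 3 lower levels and not at 2000 CPM or more, where the shares are 38.7% in deleted and 90.9% in control hosts.

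Cells positive for both Cd69 and Nr4a1 numbered 85 in deleted and 45 in control hosts. Of these, 42.4% in deleted hosts (interval 31.7 to 53.6%) and 75.6% in control hosts (60.5 to 87.1%) were positive for Egr1, while Nr4a3 was positive in 24.7 and 24.4%.

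Most Egr-positive cells held Nr4a1 in both pools. All 19 Egr3-positive cells of deleted hosts were Nr4a1-positive, as were 22 of 28 in control hosts. Egr2-positive cells were Nr4a1-positive in 21 of 23 cases in deleted and 26 of 35 in control hosts. For Egr1 the shares were 54 of 84 (64.3%) in deleted and 57 of 106 (53.8%) in control hosts. Mean Nr4a1 was 2698 CPM in Egr1-positive and 904 CPM in Egr1-negative cells of deleted hosts, a ratio of 2.99. In control hosts it was 2665 CPM in Egr1-positive and 229 CPM in Egr1-negative cells, a ratio of 11.7. The medians were 749 CPM in Egr1-positive cells of deleted hosts and 455 CPM in those of control hosts, so the means of Egr1-positive cells were close between the pools and the medians were not.

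Within the Egr family, Egr2 was read almost wholly in Egr1-positive cells, and Egr3 mostly so. Of the Egr2-positive cells, 19 of 23 in deleted and 34 of 35 in control hosts were also positive for Egr1. Of the Egr3-positive cells, 12 of 19 in deleted and 14 of 28 in control hosts were positive for Egr2, and 14 and 23 were positive for Egr1. All 3 Egr genes were positive in 10 cells of deleted and 14 of control hosts. Across the 736 cells, with log2(CPM + 1) centred within plates, Pearson correlations were 0.51 for Egr1 with Egr2, 0.49 for Egr2 with Egr3 and 0.41 for Egr1 with Egr3. Between the families, Egr1 and Nr4a1 had a correlation of 0.25 in deleted and 0.44 in control cells, while Nr4a1 and Nr4a3 had 0.27 and 0.29. These correlations describe cells that share plates and depth.

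The genes whose cell-to-cell pattern was most like the members were partly the same for 4 members. Among 4270 genes positive in at least 10% of cells, Cd69 (0.31), Nfkbid (0.30), Tagap (0.27), Kdm6b (0.20) and Bcl2a1b (0.19) had the highest correlations with Egr1. Nfkbid encodes an atypical NF-kappaB inhibitor protein and Kdm6b a histone demethylase. For Egr2 they were Nfkbid (0.34), Cd69, Bcl2a1b, Tagap and Rel, an NF-kappaB subunit, and for Nr4a1 Nfkbid (0.30), Rilpl2, Tagap, Kdm6b and Cd69. For Nr4a3 they were Gadd45b (0.24), Nfkbia, Bcl2a1b, Rel and Rilpl2. Of these genes Cd69 (588 CPM in deleted and 303 CPM in control hosts) and Tagap (459.8 and 333 CPM) were higher in deleted hosts with no plate overlapping. Nfkbid (190.5 and 159 CPM) and Kdm6b (36.2 and 35.2 CPM) overlapped, and Cd69 thus went with Egr1 across cells and against it between pools.

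The ERK and serum response factor list holds genes that share inducing signals with Egr1, and also the factor genes Srf, Elk1, Elk3 and Elk4. Of its measured genes, 14 were higher and 8 lower in deleted hosts, with Elk1, Elk3 and Elk4 among the lower. Over all genes 46.3% were higher. Of the 22 measured genes, 3 were at least 2-fold higher in deleted hosts and none was 2-fold lower, against 5.98% and 6.71% of all genes. The median log2 ratio was 0.46, beside -0.04 over all genes. For 8 of the 22 every deleted plate lay above every control plate, and for none below. Over all genes these shares were 1.81% above and 2.60% below. All gene lists here were chosen with earlier results of these data known. Nothing is therefore read from how their counts or medians stand beside those over all genes. Dusp5, a phosphatase that ERK induces and that inactivates ERK, was at 218 CPM in deleted and 36.5 CPM in control hosts. The AP-1 subunit genes Junb (2890 CPM in deleted and 1285 CPM in control hosts) and Jun (471 and 284 CPM) and the phosphatase gene Dusp1 (1228 and 656 CPM) also had no plate overlapping. The third gene at 2-fold was Dusp4, positive in 8 and 2 cells. Srf itself was at 14.2 CPM in deleted and 9.24 CPM in control hosts, in 20 and 14 positive cells. Its plates were only just apart, with the lowest deleted plate at 11.86 CPM and the highest control plate at 11.82 CPM. Fos was at 618 and 452 CPM with overlapping plates.

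The CREB and cAMP list holds Creb1 and its coactivator genes Crtc1, Crtc2 and Crtc3 beside induced genes. In deleted hosts 15 of its 18 measured genes were higher, some by little (log2 ratio 0.004 for Crtc2). In the calcium list 11 of 16 were higher. Of all genes measured, 46.3% were higher in deleted hosts. Of 18 measured genes of the CREB and cAMP list, 5 were at least 2-fold higher and none 2-fold lower, with a median log2 ratio of 0.48. Among all genes, 5.98% were past 2-fold upward in deleted hosts and 6.71% downward. Every deleted plate lay above every control plate for 1.81% of all genes, and below for 2.60%. Rgs2 (238 CPM in deleted and 71.8 CPM in control hosts) and Rgs1 (214 and 102 CPM), which regulate signalling by G proteins, had no plate overlapping. So had Ppp1r15a, a stress phosphatase subunit gene, at 765 CPM in deleted and 382 CPM in control hosts. Gadd45b was at 106 CPM in deleted and 40.4 CPM in control hosts and the adhesion gene Icam1 at 70.2 and 25.1 CPM, with overlapping plates. The fifth gene at 2-fold, Nfil3, was positive in 7 and 1 cells. Of 16 measured calcium and NFAT genes, 2 were 2-fold higher and 1 was 2-fold lower, with a median of 0.24. Ppp3ca, a catalytic subunit of calcineurin, was at 24.9 CPM in deleted and 10.7 CPM in control hosts, in 16 and 12 positive cells. Nfatc2, an NFAT protein gene, was at 19.1 and 6.47 CPM, and the second catalytic subunit gene Ppp3cb was the lower one, at 6.95 CPM in deleted and 19.6 CPM in control hosts. Plcg1, the phospholipase that starts the calcium signal, was at 206 CPM in deleted and 144 CPM in control hosts. Nfatc2, Ppp3cb and Plcg1 had no plate overlapping.

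Genes linked to Egr2 and Egr3 in T cells were not lower as a group. Of 17 measured, 4 were 2-fold higher and 2 were 2-fold lower, against 5.98% and 6.71% of all genes. The median log2 ratio was 0.34, but 0.16 without deleted plate 4. Cblb, a ubiquitin ligase gene that Egr2 and Egr3 can induce, was at 250 CPM in deleted and 116 CPM in control hosts with no plate overlapping, and Tnfrsf9, a costimulatory receptor gene, at 223 and 128 CPM with overlapping plates. The others past 2-fold, Rnf128, Nfil3 and Crtam higher and Ndrg1 and Nrn1 lower, were each positive in 8 or fewer cells of either pool. Of 19 measured genes linked to Nr4a, 4 were 2-fold higher and none was 2-fold lower, with a median of 0.29. They included Tox2 (39.998 and 18.5 CPM) and Runx1 (115 and 55.1 CPM), transcription factor genes with no plate overlapping, and Cblb and Rnf128, which stand in both lists. The 7 measured Egr corepressors and relatives had a median of 0.01 and the 12 Nr4a partners 0.04, and of these only Rxra among the partners was past 2-fold, higher in deleted hosts in 3 and 1 positive cells. Sp3, a zinc finger gene that binds GC-rich sites as Egr proteins do, was lower, at 106 CPM in deleted and 165 CPM in control hosts with no plate overlapping.

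Surface and cytokine genes of recent receptor signalling went both ways. Of 17 measured, Irf8 was 2-fold higher (74.7 CPM in deleted and 31.6 CPM in control hosts) and Tnf was 2-fold lower (3.75 and 23.6 CPM, in 5 and 13 positive cells), with a median of 0.16. Over all genes 5.98% were 2-fold higher and 6.71% were 2-fold lower. The 11 measured heat shock genes, which rise when tissue is taken apart, had a median of 0.22. Among them Dnajb4 was 2-fold higher (26.7 CPM in deleted and 10.8 CPM in control hosts) and none was 2-fold lower, and their part in the levels of the early genes was not tested.

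**Figure D5:**
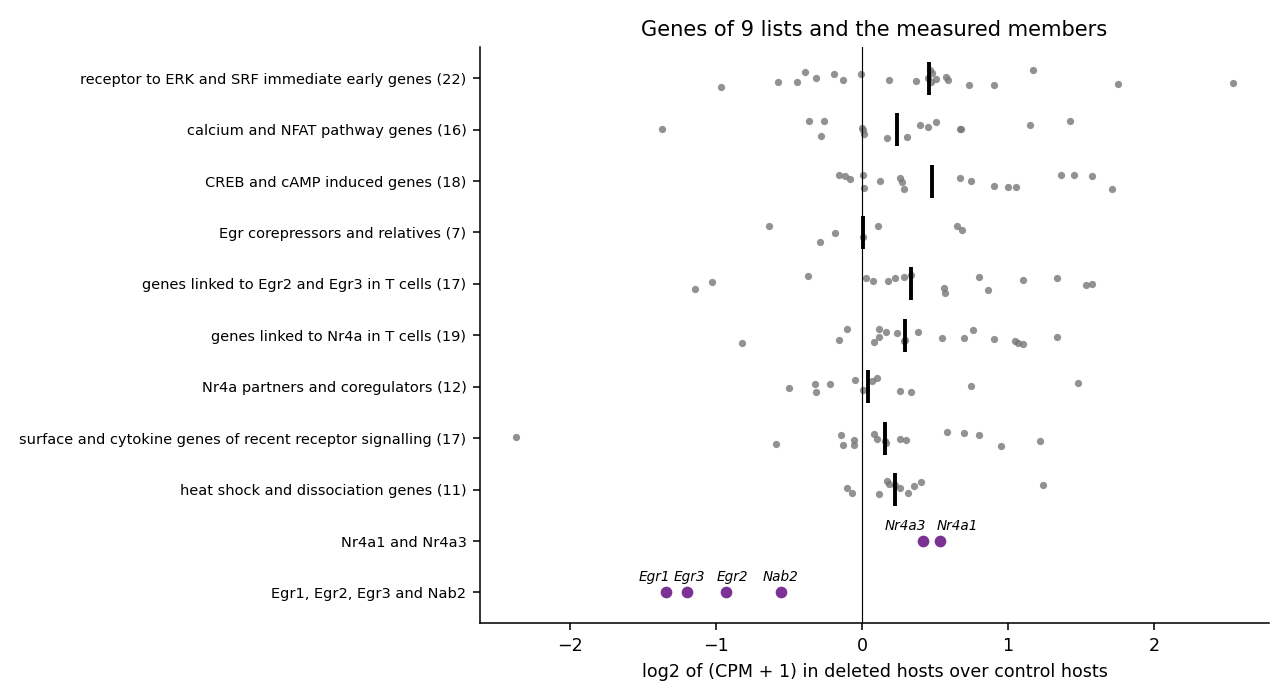
Log2 ratio of (CPM + 1) in deleted over control hosts for every measured gene of 9 lists (grey points, number of genes in brackets, black bar at the median) and for the 6 measured members (purple). The medians lie between 0.01 and 0.48, while Egr1, Egr2, Egr3 and Nab2 lie between -1.34 and -0.56, and the 9 lists hold Nab1 and other genes but none of the 7 members.

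The targeted gene Il13ra1 was at 0.197 CPM in deleted and 2.35 CPM in control hosts. A single cell per pool was positive, and since the sorted T cells carry no deletion the level is no check on the labels. Cd4 was at 783 CPM in deleted and 915 CPM in control hosts and Cd3e at 212 and 221 CPM, with overlapping plates.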

How the data were processed

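SmartSeq2 libraries of single spleen CD4 T cells were measured. The authors deposited raw read counts, in whole numbers, for each gene in the wells of 8 plates of 96 wells. Per the submitters' processing notes they used featureCounts 2.0.1 and mm10. The aligner, annotation and handling of strand were not given in the sources used here. Per the labels' protocols cDNA was amplified with 25 cycles and no molecular identifiers are named, so intervals cover counting error only.

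The 92 cell wells per plate were used, and the 32 control wells entered no comparison. Counts were scaled to 1000000 reads in genes (CPM) per cell, plate and pool, with Python 3.11.15, numpy 2.4.6, pandas 2.3.3 and scipy 1.17.1. No cell was removed. In all, 2 wells held under 100000 reads, and no doublet caller was run on singly sorted wells. Log2 ratios used a pseudocount of 1 CPM, which understates the folds of low genes. A gene counted as measured where 1 or both pools reached 5 CPM. Shares have exact Clopper-Pearson and levels exact Poisson intervals. The log2 ratios and the overlap of plates were tested on simulated plates, with folds larger than those of the members. Positive cells, cell classes and correlations were not tested in this way. The control and deleted plates are numbered in the order of the plate labels.

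The 7 members and the 9 gene lists were chosen with earlier results of these data known. Named from each list were up to 4 genes with the largest ratio at 20 CPM or more, and for 4 members the 5 genes most like them, plus Cd69, Cd4, Cd3e and Il13ra1. Nab1, Fos, Srf, Ppp1r15a and the genes behind small counts in a list were chosen after their values were seen. Gene coordinates are from RefSeq and exon lengths from GENCODE vM21, both GRCm38. Alternatives were another scaling, per-cell means, other pseudocounts and cuts, thinning to 500000 reads, and leaving out shallow wells, the highest cell or each plate in turn.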

Additional observations from a re-analysis of the deposited data

Results flagged for a closer look

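Of the 32 control wells, 23 had names ending in mBM10 or mBM100, which the labels do not explain, and they entered no comparison. In 1 of them, with 11622 reads in all, Nr4a1 had 12 reads and Egr1 had 1, inside the range of the wells without a cell, and it is left out of the values that follow. The other 22 each had 100000 reads or more. They held Nr4a1 at a median of 236 CPM (64.7 to 820.0) and Egr1 at 26.0 CPM (0.913 to 72.5). Nr4a2 was at 4.13 CPM and Nr4a3 at 1.04 CPM. In raw reads, and not in CPM, each gene was above the wells without a cell in at least 14 of the 22 wells. The wells without a cell had only 6698 to 12348 reads in all, and their Nr4a1 reads came to 426 to 1675 CPM. What the 22 wells held was not tested.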

How the results depend on the processing

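The summed Egr log2 ratio of -1.21 lay between -1.44 and -0.92, and the Nr4a ratio of 0.53 between 0.35 and 0.77, with any 1 plate left out. Both kept their direction with another scaling, per-cell means, other pseudocounts, or without shallow wells or the highest cell. The count of members with plates that did not overlap was 2 to 4 with 1 plate left out, 4 without control plate 1 (Egr1, Egr2, Egr3 and Nab2) and 3 without control plate 3 (with Nr4a1). Leaving out a plate can only reduce overlap, and no share over all genes was computed beside these counts. Nr4a2, which was not measured, ran from -0.87 to 1.18 with 1 plate left out (1.18 without control plate 3) and was 0.54 when each pool lost its highest cell. Nr4a3 was 0.16 by per-cell means. The share of Egr1-positive cells at high Nr4a1 was 53.1% in deleted hosts with a cut of 4000 CPM and 67.6% in control hosts with a cut of 1000 CPM (32.0% in deleted hosts). The Egr1-positive share of all cells was 16.6% in deleted hosts at 50 CPM alone, against 22.8% as reported. The Nr4a1-positive share in deleted hosts was 65.2% at 10 CPM alone and 52.2% at 50 CPM alone, against 51.4% as reported. Without 1 plate the share at high Nr4a1 ranged from 33.9 to 44.0% in deleted and from 87.0 to 92.6% in control hosts. The cuts of 1000 and 4000 CPM were added after the data were seen. List medians ranged, with 1 plate left out, from 0.27 to 0.44 (ERK and serum response factor), 0.45 to 0.69 (CREB), 0.28 to 0.48 (Nr4a-linked), 0.16 to 0.51 (Egr2- and Egr3-linked), 0.14 to 0.36 (calcium and NFAT), -0.064 to 0.16 (Egr corepressors), -0.059 to 0.17 (Nr4a partners) and -0.019 to 0.30 (surface and cytokine). The CREB median was 0.67 at 20 CPM or more and 0.29 with no filter, and that of the Egr corepressors -0.090 with no filter. Spearman correlations were lower than Pearson's, at 0.20 for Cd69 with Egr1, 0.24 for Nfkbid with Egr2, 0.18 for Nfkbid with Nr4a1 and 0.18 for Gadd45b with Nr4a3. The causes were not tested. No paired analysis was possible because each group was 1 pooled sample.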
